A study of Homo sapiens with 2 samples.

Results

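The genes described here are the nuclear genes that encode the mitochondrial respiratory chain. They were taken by symbol from the protein-coding genes of the RefSeq annotation: those starting with NDUFA, NDUFB, NDUFC, NDUFS or NDUFV (complex I), SDHA, SDHB, SDHC and SDHD (complex II), those starting with UQCR and CYC1 (complex III), those starting with COX4, COX5, COX6, COX7 or COX8 (complex IV), and those starting with ATP5 (complex V). This gave 97 of 20033 protein-coding genes on chromosomes 1 to 22, X and Y. Besides subunits, the symbols took in 8 NDUFAF assembly factors of complex I, 2 readthrough genes that share an end with NDUFC2 or ATP5MF, and 8 tissue-restricted or duplicated copies such as COX6A2.

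The study profiled where RUNX2 and MTA1 sit on the genome of MDA-MB-231 cells, a human triple-negative breast cancer line, and asked which promoters they share. RUNX2 is a DNA-binding transcription factor of bone development, and MTA1 is a subunit of the NuRD complex, which remodels nucleosomes and removes histone acetyl groups. There was 1 library with an anti-RUNX2 antibody and 1 with an anti-MTA1 antibody, both from untreated cells grown in DMEM with serum, and no replicate. The labels call the method CUT&Tag, but also describe adaptor ligation and gel selection of precipitated DNA, and the supplier of each antibody differs between the labels and the published methods, so the preparation and the antibody product are uncertain. The RUNX2 list held 61717 peaks of 151 bp at the median, and the MTA1 list 42698 of 185 bp. Read depth is unknown and no control library is described, so a gene without a listed peak may have had a weak signal or none.

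The respiratory chain sits in the inner mitochondrial membrane. Complexes I and II pass electrons from NADH and succinate to ubiquinone, complex III passes them on to cytochrome c, complex IV hands them to oxygen, and complex V makes ATP from the proton gradient that complexes I, III and IV build. Most subunits are made from nuclear genes that are active in nearly every tissue, and their promoters are known for sites of NRF1, of the ETS factor GABPA and of YY1.

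Reference promoters of 8 genes show what lay under the peaks. They are the 250 bases before the RefSeq start (GRCh38.p14), 5′ to 3′ on the strand of the gene. Capitals mark matches, on either strand, to RUNX (TGTGGT), ETS (CCGGAA), NRF1 (GCGCA, any base, then GCGC), YY1 (AANATGGCG), CRE (TGACGTCA) and AP-1 (TGANTCA). A capital run is a match of letters and not a measured binding site. Matches to SP1 (GGGCGG), counted further below, are not marked, and such matches lay under both peaks at SDHB, COX8A and COX6A1. Negative positions below count bases before the start.

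SDHA and SDHB, which encode the catalytic flavoprotein and the iron-sulfur subunit of complex II, are shown because their peaks covered such matches. The SDHA sequence is chr5:218070-218319 on the plus strand, and the SDHB sequence is chr1:17054033-17054282 on the minus strand.
SDHA: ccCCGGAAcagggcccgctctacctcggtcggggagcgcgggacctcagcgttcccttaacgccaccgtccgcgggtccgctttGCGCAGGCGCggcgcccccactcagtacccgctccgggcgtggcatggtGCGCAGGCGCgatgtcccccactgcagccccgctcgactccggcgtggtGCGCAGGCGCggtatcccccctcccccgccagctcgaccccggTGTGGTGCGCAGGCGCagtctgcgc
SDHB: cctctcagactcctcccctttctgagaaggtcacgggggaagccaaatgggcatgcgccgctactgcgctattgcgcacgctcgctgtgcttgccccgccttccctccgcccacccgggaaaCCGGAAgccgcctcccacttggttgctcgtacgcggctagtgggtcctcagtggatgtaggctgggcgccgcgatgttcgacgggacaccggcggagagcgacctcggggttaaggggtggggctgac

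The SDHA promoter carried 4 NRF1 matches, with first bases at -166, -117, -68 and -19, and a RUNX match at -25 directly before the last of them. The RUNX2 peak at SDHA (chromosome 5, 218225 to 218323) covered the RUNX match and the NRF1 matches at -68 and -19, and the MTA1 peak (218138 to 218340) covered all 4 NRF1 matches and the RUNX match. The score of the former was above 55.0% of RUNX2 peaks and that of the latter above 80.5% of MTA1 peaks. SDHB had stronger peaks without a RUNX match: its RUNX2 peak (chromosome 1, 17054026 to 17054313) ranked at 91.1% and its MTA1 peak (17054000 to 17054411) at 95.7%, and both covered the ETS match at -128.

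COX8A and ATP5MC1 are shown for strong peaks in both lists, and ATP5PF for a strong MTA1 peak (rank 96.7%) beside a RUNX2 peak of 76.2%. COX8A encodes a small subunit of complex IV, ATP5MC1 a copy of the membrane ring subunit c of complex V, and ATP5PF a stalk subunit of complex V. Their sequences are chr11:63974370-63974619 (plus strand), chr17:48892537-48892786 (plus strand) and chr21:25735055-25735304 (minus strand).
COX8A: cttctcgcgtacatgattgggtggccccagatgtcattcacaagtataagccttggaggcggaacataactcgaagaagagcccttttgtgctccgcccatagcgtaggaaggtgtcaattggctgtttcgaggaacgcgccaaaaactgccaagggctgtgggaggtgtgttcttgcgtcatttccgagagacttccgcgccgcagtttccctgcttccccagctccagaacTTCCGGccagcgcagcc
ATP5MC1: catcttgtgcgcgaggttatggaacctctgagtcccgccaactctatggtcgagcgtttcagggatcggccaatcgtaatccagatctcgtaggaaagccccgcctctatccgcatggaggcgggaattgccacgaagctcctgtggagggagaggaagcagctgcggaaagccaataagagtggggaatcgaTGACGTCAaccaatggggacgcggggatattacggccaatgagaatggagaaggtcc
ATP5PF: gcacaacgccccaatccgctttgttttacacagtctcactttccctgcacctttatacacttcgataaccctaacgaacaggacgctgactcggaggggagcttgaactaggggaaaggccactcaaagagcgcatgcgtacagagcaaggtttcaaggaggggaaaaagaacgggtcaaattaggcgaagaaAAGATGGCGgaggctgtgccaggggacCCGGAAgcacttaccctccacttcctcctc

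At COX8A the ETS match at -17 lay under both peaks. At ATP5MC1 the CRE match at -57 lay under both peaks, and no ETS, NRF1 or YY1 match was found in the window. The YY1 match at -57 and the ETS match at -30 of ATP5PF also lay under both peaks. ATP5PF starts back to back with GABPA, the gene of the ETS factor itself, so the same peaks count for both genes.

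NDUFB4, an accessory subunit of complex I, is shown because it had only an MTA1 peak. COX6A1 and its heart and muscle copy COX6A2 are shown because the former had both peaks and the latter neither. Their sequences are chr3:120596086-120596335 (plus strand), chr12:120437863-120438112 (plus strand) and chr16:31428361-31428610 (minus strand).
NDUFB4: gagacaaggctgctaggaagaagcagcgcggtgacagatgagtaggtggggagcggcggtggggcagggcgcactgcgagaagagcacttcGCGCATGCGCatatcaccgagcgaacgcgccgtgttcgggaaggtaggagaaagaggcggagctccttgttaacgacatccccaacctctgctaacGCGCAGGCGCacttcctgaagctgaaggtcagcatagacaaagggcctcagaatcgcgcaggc
COX6A1: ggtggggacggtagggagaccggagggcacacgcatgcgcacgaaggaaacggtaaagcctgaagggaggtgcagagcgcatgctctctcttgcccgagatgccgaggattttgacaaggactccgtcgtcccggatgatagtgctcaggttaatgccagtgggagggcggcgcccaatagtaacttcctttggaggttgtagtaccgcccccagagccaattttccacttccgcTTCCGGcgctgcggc
COX6A2: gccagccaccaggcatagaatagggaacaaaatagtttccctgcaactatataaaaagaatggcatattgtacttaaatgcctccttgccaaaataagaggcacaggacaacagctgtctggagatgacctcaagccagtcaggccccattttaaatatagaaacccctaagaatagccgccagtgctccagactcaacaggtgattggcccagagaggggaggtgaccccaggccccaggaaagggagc

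NDUFB4 held NRF1 matches at -159 and -63, both under its MTA1 peak (chromosome 3, 120596042 to 120596361), and the nearest RUNX2 peak was 37251 bp from the gene. The COX6A1 window had an ETS match at -15, covered by the MTA1 peak and not by the RUNX2 peak. Its unmarked SP1 matches at -85 and -45 lay under both peaks. None of the 6 motifs matched in these bases of COX6A2.

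Most respiratory chain genes had peaks of both libraries at an end. A gene was counted when a listed peak came within 1 kb of either of its ends, by an overlap of at least 1 bp. By this measure 70 of 97 genes had a RUNX2 peak (72.2%, exact 95% interval 62.1% to 80.8%), where 49.9% of all protein-coding genes did. An MTA1 peak was found at 77 (79.4%, 70.0% to 86.9%), where 50.9% of all protein-coding genes had one. Both peaks were present at 65 (67.0%, 56.7% to 76.2%), beside 43.9% of all genes. Neither was present at 15 (15.5%), beside 43.1%. The share with a peak was thus higher than over protein-coding genes at large in either list, and the share with neither was lower. The intervals cover counting over genes only, since genes of 1 library are not replicates of it, and with 1 library per antibody no test was possible.

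Without the 8 restricted or duplicated copies, 89 genes remained, of which RUNX2 marked 70, MTA1 marked 76, both marked 65 and neither marked 8. With the readthrough genes left out, so that each shared end counted once, 65 of 95 genes had both peaks (68.4%). Within 3 kb of an end, RUNX2 marked 75 (77.3%), MTA1 marked 82 (84.5%) and both marked 71 (73.2%) of the 97, beside 59.9%, 59.1% and 51.9% of all protein-coding genes. When only the 10000 peaks of highest score were kept in each list, RUNX2 marked 21 (beside 14.5%), MTA1 marked 45 (beside 24.6%) and both marked 18 (beside 12.2%).

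**Figure D1:**
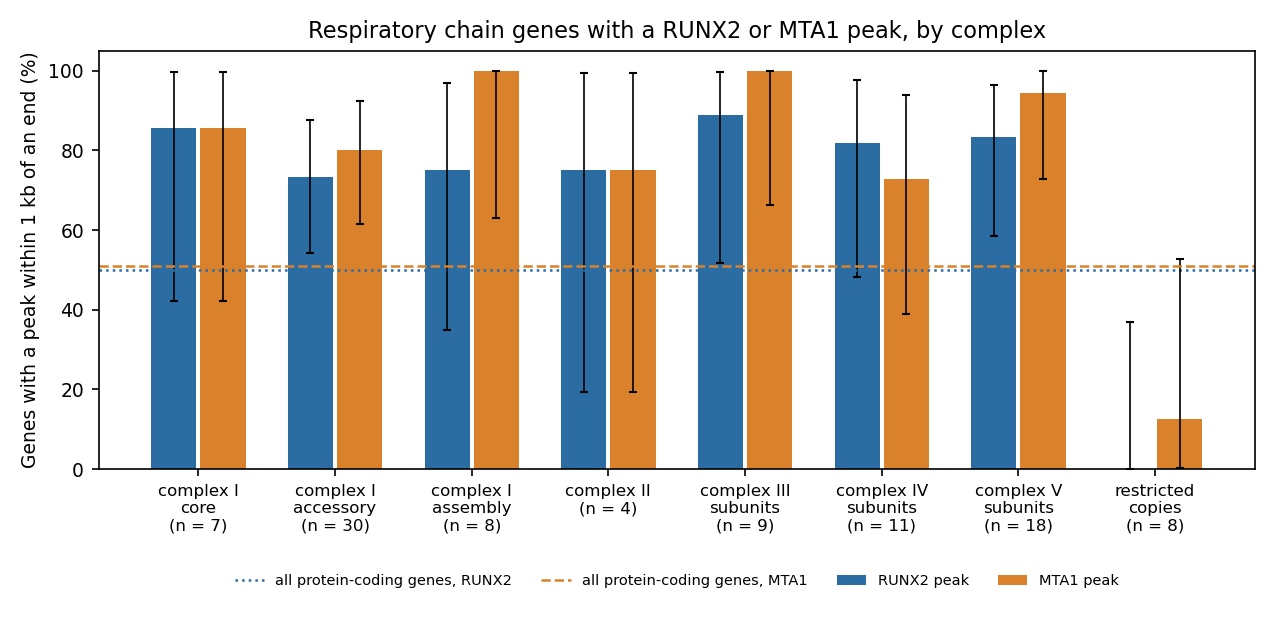
The share of genes (y axis, %) with a RUNX2 peak (blue bars) or an MTA1 peak (orange bars) within 1 kb of an end is plotted for 8 groups of respiratory chain genes, with exact 95% binomial intervals over genes as error bars and the shares of all protein-coding genes as a dotted line (RUNX2, 49.9%) and a dashed line (MTA1, 50.9%). Bars of the 7 groups other than the restricted copies stand above both lines, with wide intervals that reach below a line in 4 of these groups for at least 1 library, and the restricted copies have 0 of 8 genes with a RUNX2 peak and 1 of 8 with an MTA1 peak.

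Complex I, the NADH dehydrogenase, contributed 46 genes. RUNX2 peaks were found at 35 (76.1%), MTA1 peaks at 38 (82.6%), both at 31 (67.4%) and neither at 4 (8.70%). Over all protein-coding genes these shares were 49.9%, 50.9%, 43.9% and 43.1%, which hold as background for the complexes below too. Among the core subunits are those that carry the flavin and the iron-sulfur clusters. NDUFV1 and NDUFV2, of the NADH-oxidising arm, stood at nearly the same ranks in both lists, at 80.6% and 80.2% for NDUFV1 and 80.6% and 82.9% for NDUFV2 (RUNX2 first here and below). NDUFS1 ranked at 64.3% and 81.4%, NDUFS3 at 27.1% and 58.4%, and NDUFS8 at 92.4% and 79.2%. At NDUFS8 the strongest RUNX2 peak lay at the far end of the gene, 6310 bp from the start, and the strongest MTA1 peak at the start. NDUFS7 had a strong RUNX2 peak (rank 95.8%) and a weak MTA1 peak (27.6%) over the same stretch of chromosome 19.

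Of the 30 accessory subunits of complex I, 22 were marked by RUNX2 (73.3%), 24 by MTA1 (80.0%) and 19 by both (63.3%). Over all protein-coding genes the shares were 49.9%, 50.9% and 43.9%. NDUFA11, a membrane arm subunit, had the highest RUNX2 rank of all 97 genes (score 57.5, 99.2%) and an MTA1 peak at 98.1% (score 39.7). NDUFA2 followed among accessory subunits, with scores of 36.5 and 25.6 and ranks of 96.2% and 92.9%. The 8 NDUFAF assembly factors, which help to build the complex without staying in it, were all marked by MTA1, and 6 of them by RUNX2. Their peaks were of middling RUNX2 rank, with a median of 56.4% over the 6, beside 71.3% over all protein-coding genes with a peak.

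In complex II, the succinate dehydrogenase, 3 of 4 genes had both peaks. Besides SDHA and SDHB these included SDHD, a membrane anchor, with ranks of 85.4% and 79.1%. SDHC, the other anchor, had neither, and its nearest peaks were 26717 bp (RUNX2) and 19572 bp (MTA1) away. SDHA has partial copies elsewhere in the genome, and how reads from such copies were placed is not given in the sources used here.

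Complex III, the cytochrome bc1 complex, had peaks at nearly every subunit gene. MTA1 marked 9 of its 9 subunit genes (100%) and RUNX2 marked 8 (88.9%), beside 50.9% and 49.9% of all protein-coding genes. CYC1, which encodes cytochrome c1, ranked at 48.6% and 58.3%, below the median of the respiratory chain genes in each list. The exception for RUNX2 was UQCRFS1, the Rieske iron-sulfur protein, whose MTA1 peak was weak as well (score 3.61, rank 3.61%).

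Of complex IV, the cytochrome c oxidase, 11 subunit genes are not restricted copies (COX7A2L, a supercomplex factor, among them). RUNX2 marked 9 of these 11 (81.8%, 48.2% to 97.7%). MTA1 marked 8, and 8 had both (each 72.7%, 39.0% to 94.0%). The intervals took in the 49.9%, 50.9% and 43.9% of all protein-coding genes. The MTA1 peaks that were present stood high in their list, with a median rank of 91.8% over 8 genes beside 75.3% over all protein-coding genes with a peak. COX8A stood near the top of both lists, with scores of 37.4 (96.4%) and 58.2 (99.7%). COX6C had only a RUNX2 peak (45.2%).

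Complex V, the ATP synthase, had peaks of high rank in both lists. Of its 18 genes other than the ATP5MGL copy and the readthrough gene, 15 had a RUNX2 peak (83.3%) and 17 an MTA1 peak (94.4%). Over all protein-coding genes the shares were 49.9% and 50.9%. The median ranks in complex V were 82.3% and 90.0%. All 5 genes of the catalytic F1 head (ATP5F1A to ATP5F1E) had both. ATP5F1B, the catalytic beta subunit, had scores of 37.8 (96.5%) and 42.4 (98.5%), and ATP5F1E, the epsilon subunit, 36.2 (96.1%) and 22.3 (90.2%). In the membrane part and stalks 9 of 12 genes had a RUNX2 peak and 11 an MTA1 peak. ATP5MC1 had the highest MTA1 rank of all 97 genes (score 64.2, 99.8%) beside a RUNX2 score of 29.2 (93.6%). ATP5MK, a small membrane subunit, ranked at 91.9% and 99.2%, and ATP5PO, a stalk subunit, at 87.4% and 99.1%.

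**Figure D2:**
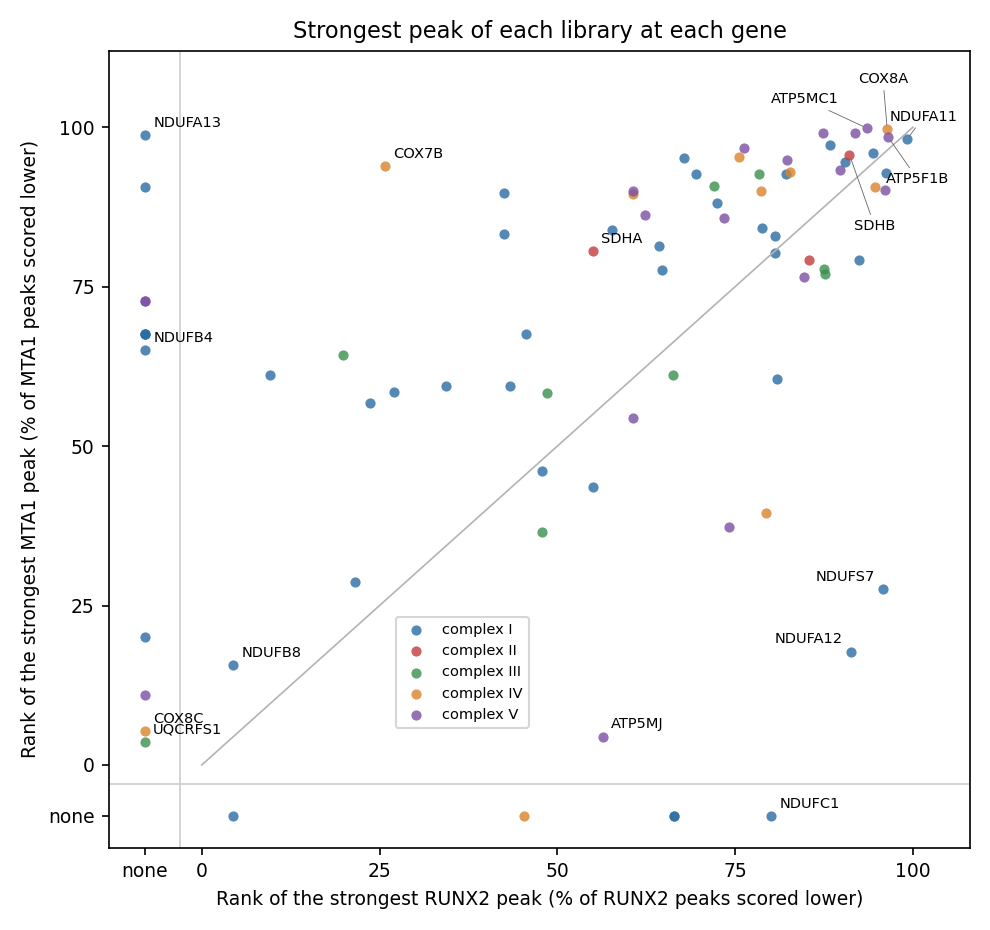
Each point is a respiratory chain gene with at least 1 peak, coloured by complex, at the rank of its strongest RUNX2 peak (x axis, % of RUNX2 peaks with a lower score) and of its strongest MTA1 peak (y axis, % of MTA1 peaks with a lower score), with genes lacking a peak of that library placed at "none". The grey diagonal marks equal rank, and 44 of the 65 genes with both peaks lie above it; NDUFA11, ATP5F1B, COX8A and ATP5MC1 sit in the upper right corner.

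The rank of the peaks was also described. Rank is the percent of peaks of the same list with a lower score, taken for the strongest peak of a gene, and was used because no scale is stated for the score. The median RUNX2 rank was 73.8% over 70 genes (quartiles 55.0% and 87.5%), beside 71.3% over all protein-coding genes with a peak. The median MTA1 rank was 80.5% over 77 genes (59.5% and 92.7%), beside 75.3%. The top 10% of the MTA1 list held a peak of 27 of the 97 genes (27.8%), beside 13.6% of all protein-coding genes, and of the RUNX2 list 14 genes (14.4%), beside 8.77%. Of genes with a peak only, these were 35.1% and 20.0%, beside 26.7% and 17.6%.

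The libraries marked the same stretch at most of these genes. Among the 65 genes with both, the strongest peaks overlapped at 60 (92.3%, 83.0% to 97.5%), beside 87.7% over the 8789 protein-coding genes with both. The 5 exceptions were NDUFB2, NDUFB6, NDUFS8, NDUFAF6 and NDUFAF7. MTA1 ranked higher than RUNX2 at 44 of the 65 (67.7%), beside 61.9%. As a description over genes that share both libraries, Spearman's rho between the ranks was 0.541 over the 65 and 0.641 over the 8789.

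Some genes stood far apart in the lists. MTA1 ranked well above RUNX2 at COX7B (25.8% and 93.9%), a small complex IV subunit, at NDUFB2 (9.56% and 61.1%) and at NDUFB3 (42.5% and 89.6%), both accessory subunits of complex I. In the other direction stood NDUFA12 (91.2% and 17.8%), an accessory subunit of complex I, NDUFS7, and ATP5MJ (56.4% and 4.45%), a small subunit of complex V. At NDUFB2 the RUNX2 peak lay at the far end of the gene from the start, so that comparison is not over 1 stretch.

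A peak of 1 library only was found at 17 genes. MTA1 alone marked 12 (12.4%, beside 7.07% of all genes). NDUFA13, a complex I subunit also known as GRIM-19, had a strong MTA1 peak (score 44.8, 98.8%) although the nearest RUNX2 peak was 24677 bp away. The other MTA1 ranks were 90.6% at NDUFAF3, 72.7% at ATP5MF and at its readthrough ATP5MF-PTCD1 from the same peak, 67.6% at NDUFA1, NDUFB9 and NDUFAF1, 65.1% at NDUFB4, 20.1% at NDUFA10, 11.0% at ATP5MG, 5.30% at COX8C and 3.61% at UQCRFS1. Thus the genes with MTA1 alone ran from the weakest to nearly the strongest of the list. RUNX2 alone marked 5 (5.15%, beside 5.98%): NDUFC1 (80.1%), NDUFC2 and NDUFC2-KCTD14 from the same peak (66.4%), COX6C and NDUFB1 (4.44%).

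These classes depend in part on where a gene is taken to end. At NDUFAF3 the RUNX2 peak missed the 1 kb limit, at 1116 bp, and the MTA1 peak met it, at 947 bp. NDUFC1 was the mirror case, with its RUNX2 peak at 934 bp and its MTA1 peak at 1044 bp. Both missing peaks lay within 1 kb of another annotated start inside the gene, as did peaks of both libraries at NDUFA5, COX7A2, COX7A2L and ATP5MC2, which were counted as having neither. NDUFA9 and NDUFS6 had no peak at such a start, and SDHC was not matched in the promoter table. NDUFS6 had peaks at 1389 bp and 1392 bp, and NDUFA9 had none nearer than 110106 bp (RUNX2) and 44170 bp (MTA1). Counted at annotated starts alone, RUNX2 marked 63 of 78 genes (80.8%, beside 52.1% of protein-coding genes with a known start), MTA1 marked 71 (91.0%, beside 53.9%) and both marked 61 (78.2%, beside 46.9%).

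The tissue-restricted and duplicated copies had almost no peaks within 1 kb of their ends. In 9 pairs of a broadly expressed gene and its copy, 7 broad genes had both peaks and 0 of 9 copies did. Over all protein-coding genes the share with both was 43.9%. The exact 95% interval of the broad genes (40.0% to 97.2%) took in that share, and that of the copies (upper bound 33.6%) lay below it. A peak of either library was found at 1 copy, COX8C, whose MTA1 peak was weak (score 3.89). The pairs include COXFA4 and COXFA4L2, formerly NDUFA4 and NDUFA4L2, which the symbols above no longer cover.

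Among broad genes of complex IV, COX7A2 had neither peak at its ends (5741 and 5767 bp away), and COX7B stood low in the RUNX2 list as given above. COX4I1 ranked at 79.3% and 39.5%, COX6A1 at 75.5% and 95.3%, COX6B1 at 78.7% and 90.0%, and COXFA4 at 86.7% and 83.1%. The nearest RUNX2 and MTA1 peaks of their copies lay 16761 and 17275 bp away at COX4I2, a lung isoform, and 14486 and 13364 bp away at COX6A2. They lay 2373 and 2380 bp away at COX6B2, a testis isoform, and 5184 and 1360 bp away at COXFA4L2. Inside COX6B2 lay 1 peak of each library. COX7A1, the heart and muscle copy of COX7A2, had its nearest peaks at 10807 and 10788 bp. At COX7B2 they were 304754 and 304786 bp away, and the nearest RUNX2 peak of COX8C was at 5783 bp.

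In complexes III and V, UQCRH, the hinge protein, ranked at 87.5% and 77.7%, and its copy UQCRHL had no peak nearer than 4554 and 6674 bp. ATP5MG was itself weak, with an MTA1 peak only, and the nearest peaks of its copy ATP5MGL were 3993 and 3937 bp away. The copies are near-identical in sequence to their broad genes in places, and how reads that match both were placed is not given in the sources used here.

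**Figure D3:**
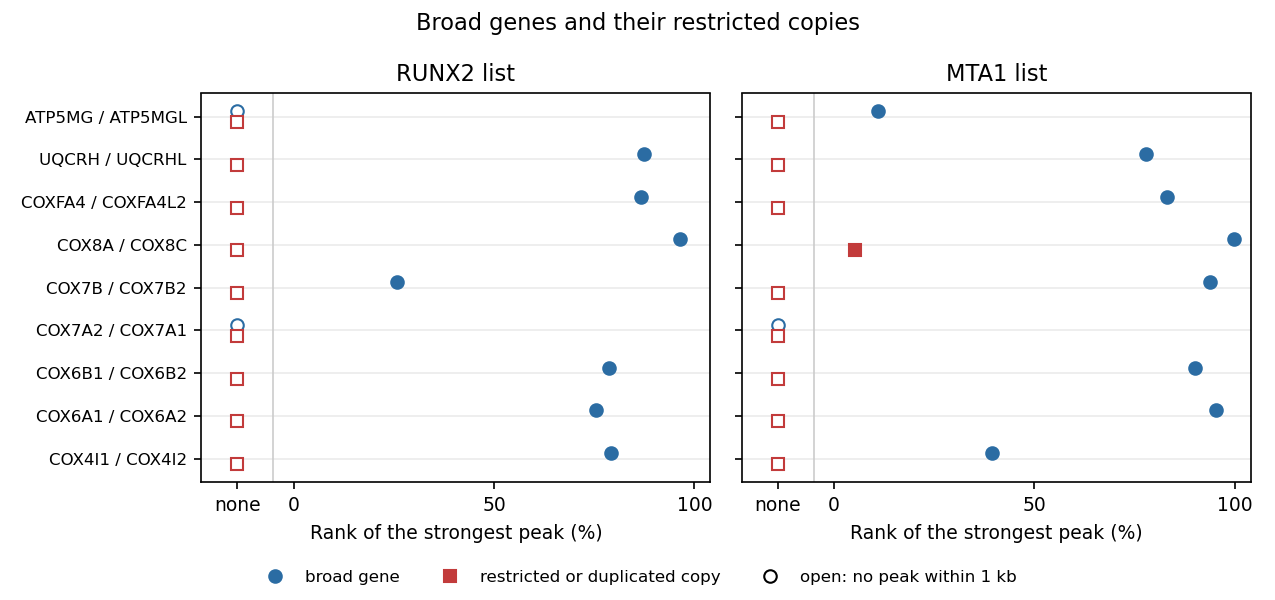
Ranks of the strongest RUNX2 peak (left) and MTA1 peak (right) within 1 kb of an end are plotted (x axis, % of peaks with a lower score) for 9 pairs of a broad gene (blue circles) and its restricted or duplicated copy (red squares), with open symbols at "none" for no peak. The copies are open throughout except COX8C in the MTA1 list (5.30%), and the broad genes are filled except COX7A2 in both lists and ATP5MG in the RUNX2 list.

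Peaks sat just upstream of the start. For genes with a peak and a start in the reference promoter set, the centre of the strongest RUNX2 peak was measured from the nearest annotated start. It lay at a median of -77.5 bp over 60 respiratory chain genes (quartiles -133 and -28 bp). Of these, 51 (85.0%) lay within 250 bp, beside 66.3% over 8265 protein-coding genes. The MTA1 peaks lay at a median of -94 bp over 66 genes, and 61 (92.4%) lay within 250 bp, beside 71.9% over 8495. Upstream of the start were 50 RUNX2 centres (83.3%, beside 69.1%) and 61 MTA1 centres (92.4%, beside 72.3%). The medians were close to those of all genes, at -81 and -80 bp, and it was the spread that was narrower. The strongest RUNX2 peak was more than 1000 bp from a start at 3 genes, NDUFB2, NDUFB6 and NDUFS8, where it marked the far end, beside 1160 of 8265 genes, and the strongest MTA1 peak at 0, beside 992 of 8495.

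**Figure D4:**
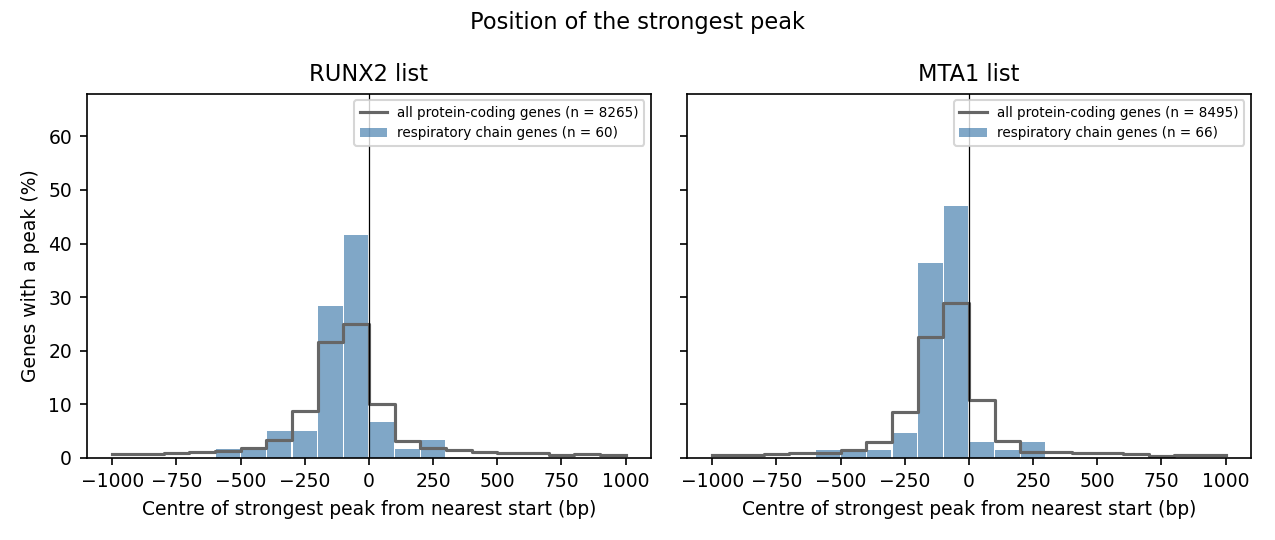
The share of genes with a peak (y axis, %) is plotted by the distance of the centre of the strongest peak from the nearest annotated start (x axis, bp, negative upstream, in bins of 100 bp) for respiratory chain genes (blue bars) and all protein-coding genes (grey line), RUNX2 on the left and MTA1 on the right. The bars are highest in the bins just upstream of the start and stand above the line there.

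Each gene with a peak usually had a single one per library, as did protein-coding genes at large. RUNX2 marked 56 genes with 1 peak, 13 with 2 and 1 (COX5A) with 3, and MTA1 marked 61 with 1 and 16 with 2. Over all protein-coding genes with a peak, 7295 of 9987 (RUNX2) and 7874 of 10205 (MTA1) had 1 peak. The strongest peaks had median widths of 243 and 275 bp, beside 250 and 286 bp over all protein-coding genes with a peak.

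The reference promoters were richer than others in ETS, NRF1 and YY1 matches. Sequences of 300 bases, from 250 before to 50 after the RefSeq start, were in the reference promoter set for 78 of the 97 genes and for 15841 protein-coding genes. The other genes were missing from that set, which does not mean that they have no annotated start. The sequences were read on both strands for each motif on its own, so that matches may overlap. CCGGAA (ETS) was in 34 of 78 (43.6%, 32.4% to 55.3%), beside 22.7% of all promoters. The NRF1 motif was in 18 (23.1%, 14.3% to 34.0%), beside 8.58%, and AANATGGCG (YY1) in 17 (21.8%, 13.2% to 32.6%), beside 4.78%. TGTGGT (RUNX) was in 13 (16.7%, 9.18% to 26.8%), an interval that takes in the 11.0% of all promoters. GGGCGG (SP1) was in 57.7%, beside 58.3%, TGACGTCA (CRE) was in 5 (6.41%, beside 2.56%) and TGANTCA (AP-1) in 4 (5.13%, beside 5.70%).

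Promoters under a peak were themselves richer in ETS, NRF1 and YY1 matches. Over the protein-coding genes whose promoter window was overlapped by a peak, ETS was in 35.3%, NRF1 in 14.8%, YY1 in 8.40%, RUNX in 8.89% and SP1 in 75%. Over the 67 respiratory chain promoters so overlapped, the shares were 50.7%, 25.4%, 20.9%, 17.9% and 61.2%. For RUNX the interval of these 67 (9.61% to 29.2%) lay just above the share of all genes under a peak, and for SP1 (48.5% to 72.9%) below it.

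The 13 promoters with a RUNX match were those of ATP5F1A, ATP5F1E, ATP5MJ, COX6B1, COX7A2L, COX8A, NDUFA3, NDUFS3, NDUFS8, NDUFV1, SDHA, UQCR10 and UQCRH. A RUNX2 peak within 1 kb of an end was found at 12 of these (92.3%, 64.0% to 99.8%) and at 48 of the 65 without a match (73.8%, 61.5% to 84.0%), so the intervals overlap. Over all protein-coding genes the order was the other way, with 45.2% of genes with a match and 53.0% of those without. Of the 15 RUNX matches 11 lay under a RUNX2 peak (73.3%), beside 27.2% of 1938 matches in all promoters. RUNX2 peaks overlapped 70.5% of these 78 promoter windows whatever their motifs, beside 40.9% of all windows. Of the ETS matches 43 of 48 lay under an MTA1 peak (89.6%, beside 63.4%), and 29 lay under a RUNX2 peak (60.4%, beside 49.5%). MTA1 peaks overlapped 83.3% of the 78 windows (beside 44.5%) and covered 59 of 68 SP1 matches (86.8%, beside 44.5%), so a high share under MTA1 was not particular to ETS. An MTA1 peak was found at 33 of the 34 genes with an ETS match and at 33 of the 44 without, and over all protein-coding genes at 76.8% and 46.8%.

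**Figure D5:**
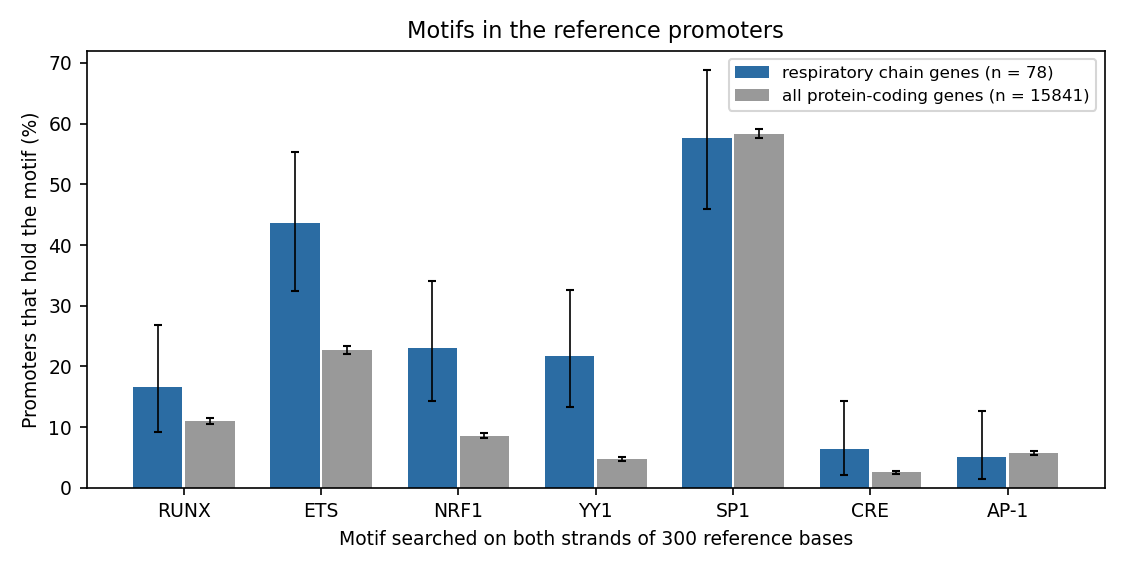
The share of reference promoters (y axis, %) that hold each of 7 motifs on either strand of 300 bases is plotted for 78 respiratory chain genes (blue) and 15841 protein-coding genes (grey), with exact 95% binomial intervals over genes as error bars. The blue bars stand above the grey ones with separate intervals for ETS, NRF1 and YY1, and the intervals overlap for RUNX, SP1, CRE and AP-1.

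Properties of the genes that move with having a peak were set beside the shares. CpG dinucleotides had the same median, 22 per promoter, in the 78 genes and in all protein-coding genes, but fewer of the 78 were poor in them (quartiles 16 and 29, beside 8 and 32). With all protein-coding genes weighted to the CpG classes of the 78, RUNX2 would mark 59.3%, MTA1 61.8% and both 53.7%, and the 78 had 76.9%, 84.6% and 73.1%. In promoters of 7 to 17 CpG, 15 of 20 respiratory chain genes had a RUNX2 peak and 17 an MTA1 peak, beside 43.0% and 45.1% of all genes of that class. The 4 respiratory chain genes with 0 to 6 CpG (COX6A2, COX7A2, COX7A2L and NDUFA5) had no peak at an outer end, beside 15.5% (RUNX2) and 13.4% (MTA1) of all genes of that class, and the last 3 are those with peaks at an inner start.

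An end of another gene lay within 1 kb of 48 of the 97 (49.5%), beside 28.5% of all protein-coding genes, and a peak there cannot be assigned to 1 of the neighbours. Such pairs included SDHD with TIMM8B, NDUFS3 with KBTBD4, ATP5F1B with BAZ2A and NDUFA13 with TSSK6 and YJEFN3. Of these 48 genes 33 had both peaks (68.8%), beside 63.3% of all protein-coding genes with such a neighbour. Of the 49 without a near neighbour 32 had both (65.3%, 50.4% to 78.3%), beside 36.1%. RUNX2 peaks were at 33 (67.3%, beside 42.7%) and MTA1 peaks at 38 (77.6%, beside 42.9%) of these 49. Among the 49 the intervals of all 3 shares excluded those of all protein-coding genes without a neighbour, and among the 48 the intervals took in those of all genes with a neighbour.

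Most of the listed genes that serve the chain without belonging to it also had peaks at an end. Of 57 such genes, RUNX2 marked 50 (87.7%), MTA1 marked 52 (91.2%) and both marked 48 (84.2%, 72.1% to 92.5%), beside the 43.9% of all protein-coding genes. The list held 45 assembly factors of complexes I to V, of which 38 had both, 4 had only an MTA1 peak (ATPAF1, COA1, COX16 and COX19) and 3 had neither (COA7, NUBPL and TMEM70). CYCS, the gene of cytochrome c, which carries electrons between complexes III and IV, had an MTA1 peak (score 74.6) above 99.96% of its list, higher than that of any of the 97, and a RUNX2 peak at 90.1%.

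Also in the list were 11 regulators, some acting on nuclear genes and others (TFAM, POLRMT, TFB1M and TFB2M) in mitochondria. The 11 had a RUNX2 peak throughout and an MTA1 peak at 9, beside 49.9% and 50.9% of all protein-coding genes. TFAM, which packages mitochondrial DNA and helps to start its transcription, ranked at 99.4% and 88.4%. POLRMT, the mitochondrial RNA polymerase, ranked at 97.7% and 69.8%. TFB1M and TFB2M ranked at 93.1% and 95.2% and at 94.7% and 98.5%. YY1 ranked at 96.5% and 98.0%, and ESRRA, a nuclear receptor of energy metabolism, at 93.6% and 94.7%. NRF1 and PPARGC1A, the coactivator of mitochondrial biogenesis, had only RUNX2 peaks, at 16.0% and 65.9%. Lower in rank among those with both were GABPB1, a partner of GABPA (55.1% and 35.0%), and PPARGC1B, a relative of PPARGC1A (42.5% and 47.7%), and GABPA itself stood at 76.2% and 96.7%.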

How the data were processed

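The authors deposited 1 list of peaks for the RUNX2 library and 1 for the MTA1 library of MDA-MB-231 cells, in which every peak has a position, a name and a score. The submitters' processing notes name CASAVA 1.4, Bowtie 0.12.8, MACS, MACS2 and the hg19 build, without saying what each was used for. The score deposited by the authors has no stated scale. Lists were therefore compared by rank only, and scores are printed as deposited. Positions are printed 1-based as listed. The lists were not on hg19: 140 RUNX2 and 122 MTA1 peaks lay past the end of its chromosome 17. They were read with the RefSeq annotation of GRCh38.p14, where 17.5% (RUNX2) and 24.5% (MTA1) of peak centres fell within 1 kb of a protein-coding gene's end, and 4.27% and 4.57% did when all peaks were moved by 100 kb.

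A gene was called when a peak overlapped the 1 kb around either end by at least 1 bp. Shares carry exact (Clopper-Pearson) 95% intervals, which cover counting only. With 1 library per antibody no p-value was computed. Ranks count tied scores at their middle. Starts and promoter sequences (250 bases before to 50 after the start) came from a RefSeq reference promoter set that held 78 of the 97 genes. Alternatives were a window of 3 kb, peak centres, score and width filters, annotated starts and fewer members. A background weighted by CpG class, genes without neighbours and shared ends counted once were added after the data were seen.

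The genes, lists and pairs were chosen with earlier results of these data known. Named with values were the 5 genes of highest rank in each list, genes with a peak of 1 library or none, the 9 pairs, the SDH genes and CYC1, the 3 genes furthest apart in rank in each direction and core subunits of complex I, with 1 item that this rule takes in not reported here. Genes of the pathway list, those near the 1 kb limit and those shown by sequence were chosen after their values were seen. Scripts were tested on simulated peaks. Python 3.11.15, pandas 2.3.3, scipy 1.17.1 and numpy 2.4.6 were used.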

Additional observations from a re-analysis of the deposited data

Results flagged for a closer look

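Peaks on mitochondrial DNA lie outside the nuclear genes compared here. RUNX2 had 17 such peaks and MTA1 had 15, and with no control library their level in the absence of antibody is unknown. Of the 13 protein-coding genes of mitochondrial DNA, which encode the other subunits of complexes I, III, IV and V, 10 were overlapped by peaks of both lists. This is overlap with the gene itself, so the nuclear shares, taken within 1 kb of an end, are no background for it. The genes lie close together and 1 peak may count for more than 1 gene. COX3 and ND3 had the same highest scores (6.43 and 8.19). The exceptions were ATP6, ATP8 and COX2. The highest scores were 42.0 (RUNX2) and 47.4 (MTA1), and the medians 8.59 and 11.2. Scores in this paragraph are as deposited, without ranks, so the lists cannot be compared by them. CYTB, the cytochrome b gene, had scores of 26.3 and 32.4, and ND1, a core subunit of complex I, 19.6 and 24.8.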

How the results depend on the processing

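Across 69 recomputed values, 58 stayed within the limits set (1.5 times for a count). The alternatives reuse the same peaks and genes, so they are not independent of each other. The share of respiratory chain genes with a RUNX2, MTA1 or both peaks lay above that of all protein-coding genes in 10 of 10 alternatives each. Their median rank lay above in 7 of 7 for RUNX2 and 6 of 7 for MTA1. These tallies count direction only, whatever the size of the gap, and carry no interval.

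With only the top 10000 peaks by score, which by construction leaves fewer, RUNX2 marked 21 genes (21.6%, beside 14.5% of all genes), MTA1 marked 45 (46.4%, beside 24.6%) and both marked 18 (18.6%, beside 12.2%). The median ranks were then 91.9% (RUNX2, beside 91.6% over all genes with a peak) and 90.8% (MTA1, beside 91.4%). Of the broad genes of the pairs 3 had both peaks, and 13 of the other pathway genes did. With a window of 3 kb, 1 restricted copy had both peaks. Without genes that have another gene end within 1 kb, which leaves 49 genes by construction, RUNX2 marked 33, MTA1 marked 38 and both marked 32.

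No paired analysis was possible because there is 1 library per antibody, and leaving out a replicate was not run for the same reason. Depth is unknown.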
